A study of Mus musculus with 6 samples.

Results

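Transcripts of the nuclear-encoded subunits of respiratory complexes I, III and IV and of ATP synthase (complex V) were examined in colon macrophages with and without extra E4BP4. Members were taken by gene symbol: Nduf followed by a, b, c, s or v and a number (complex I), Uqcr and Cyc1 (complex III), Cox4 to Cox8 followed by a letter (complex IV) and Atp5 (complex V). This gave 83 of the 25124 gene rows of the deposited table: 39 for complex I, 9 for complex III, 18 for complex IV and 17 for complex V. The cells were sorted from lamina propria of the colon, and the mice were C57BL/6 and 8 weeks old. Wild type mice gave 3 libraries, and 3 more came from mice with E4BP4, the transcription factor encoded by Nfil3, overexpressed in macrophages. The labels give neither the promoter that drives the transgene nor the sorting gate. They do not state that each library had its own mouse, and if it did not, the p-values rest on a technical spread. All mice of both groups had 2.0% dextran sulfate sodium, which injures the colonic epithelium, in the drinking water for 7 days, then 7 days of water without it, with collection on day 14. No untreated group was analysed here, so the values describe macrophages after colitis in both genotypes.

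Complex I takes electrons from NADH, complex III passes them from ubiquinol to cytochrome c, and complex IV hands them to oxygen. These complexes pump protons across the inner mitochondrial membrane, and ATP synthase uses the gradient to make ATP. Most subunits are encoded in the nucleus and a few in mitochondrial DNA. In macrophages, classical activation is known to shift energy metabolism towards glycolysis, while alternatively activated cells are known to rely more on respiration.

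Libraries held 13.97 to 15.06 M (1e6) reads in genes. Nfil3 was at 117, 120 and 119 TPM (a level corrected for transcript length and library size) in wild type and 133, 134 and 141 TPM in transgenic libraries (limma adjusted p = 0.00261). The macrophage genes Adgre1, Csf1r, Cd68, Cx3cr1, Fcgr1, Mertk, C1qa, C1qb, C1qc, Cd14, Itgam and Lyz2 were all present, with a summed level of 19880 to 20109 TPM in wild type and 19233 to 19313 TPM in transgenic libraries. RNA of other cells was present too and differed between the groups. For the counts of markers that follow, 13.2% of all tested genes were lower and 8.71% higher. Of the tested colon epithelium markers 8 of 11 fell, with a summed level of 934 to 938 TPM in wild type and 484 to 495 TPM in transgenic libraries. Of the neutrophil markers 6 of 8 fell (1007 to 1036 against 425 to 479 TPM), although Mpo and Elane were near 0 in both groups. Of the fibroblast markers 6 of 10 fell (175 to 180 against 128 to 134 TPM) and of the endothelial markers 7 of 9 fell (57.2 to 61.3 against 34.7 to 40.0 TPM). No tested member of these 4 lists rose, while Lgr5 (0.051 and 0.199 TPM) and Camp (0.135 and 0.481 TPM) were too low to test and had all transgenic values above the wild type ones. Of the lymphocyte markers 3 of 9 rose (summed level 298 to 305 against 331 to 352 TPM): Jchain from 165 to 204 TPM, Nkg7 from 2.73 to 4.81 TPM and Cd8a from 2.05 to 3.65 TPM. In the macrophage list itself 4 of 12 genes rose (Adgre1, Csf1r, C1qa and Cx3cr1) and 6 fell (Lyz2, Fcgr1, Itgam, Mertk, Cd14 and Cd68). None of these markers was at 0 in all 6 libraries. The part of these cells in the subunit values was not tested, and in bulk RNA fewer cells of a type and less RNA per cell cannot be told apart.

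Subunit transcripts were slightly lower in transgenic libraries, and the differences were unequal between subunits. Tests were run with limma on log2(TPM + 1) for each gene whose mean reached 1 TPM in either group, and p-values were adjusted over all of those genes. Of 83 members 77 passed this filter, and 17 of them fell while 2 rose at an adjusted p below 0.05, or 22.1% lower. Over all 12633 tested genes 13.2% were lower and 8.71% higher. In a separate fit of the 9049 genes with at least 5 TPM in a group the share lower was 17.5%. That share is not like for like with the 22.1%, and the members lower in that fit are counted in the closing section. The falls of the 17 members were between 8.22% (Atp5a1) and 22.8% (Cox6a1) of the wild type mean. The median log2 fold change of the 77 members was -0.10, against -0.01 over all tested genes, and 65 members were below 0 and 12 above, where 52.6% of all tested genes were below 0. With upper-quartile scaling of the libraries 57 of the 77 were below 0. That scaling also moved the share of higher genes among all calls from 39.8% to 52.0%. All 3 transgenic values lay below all 3 wild type values for 24 members and above them for 4, where the shares over all tested genes were 22.3% and 17.1%.

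**Figure D1:**
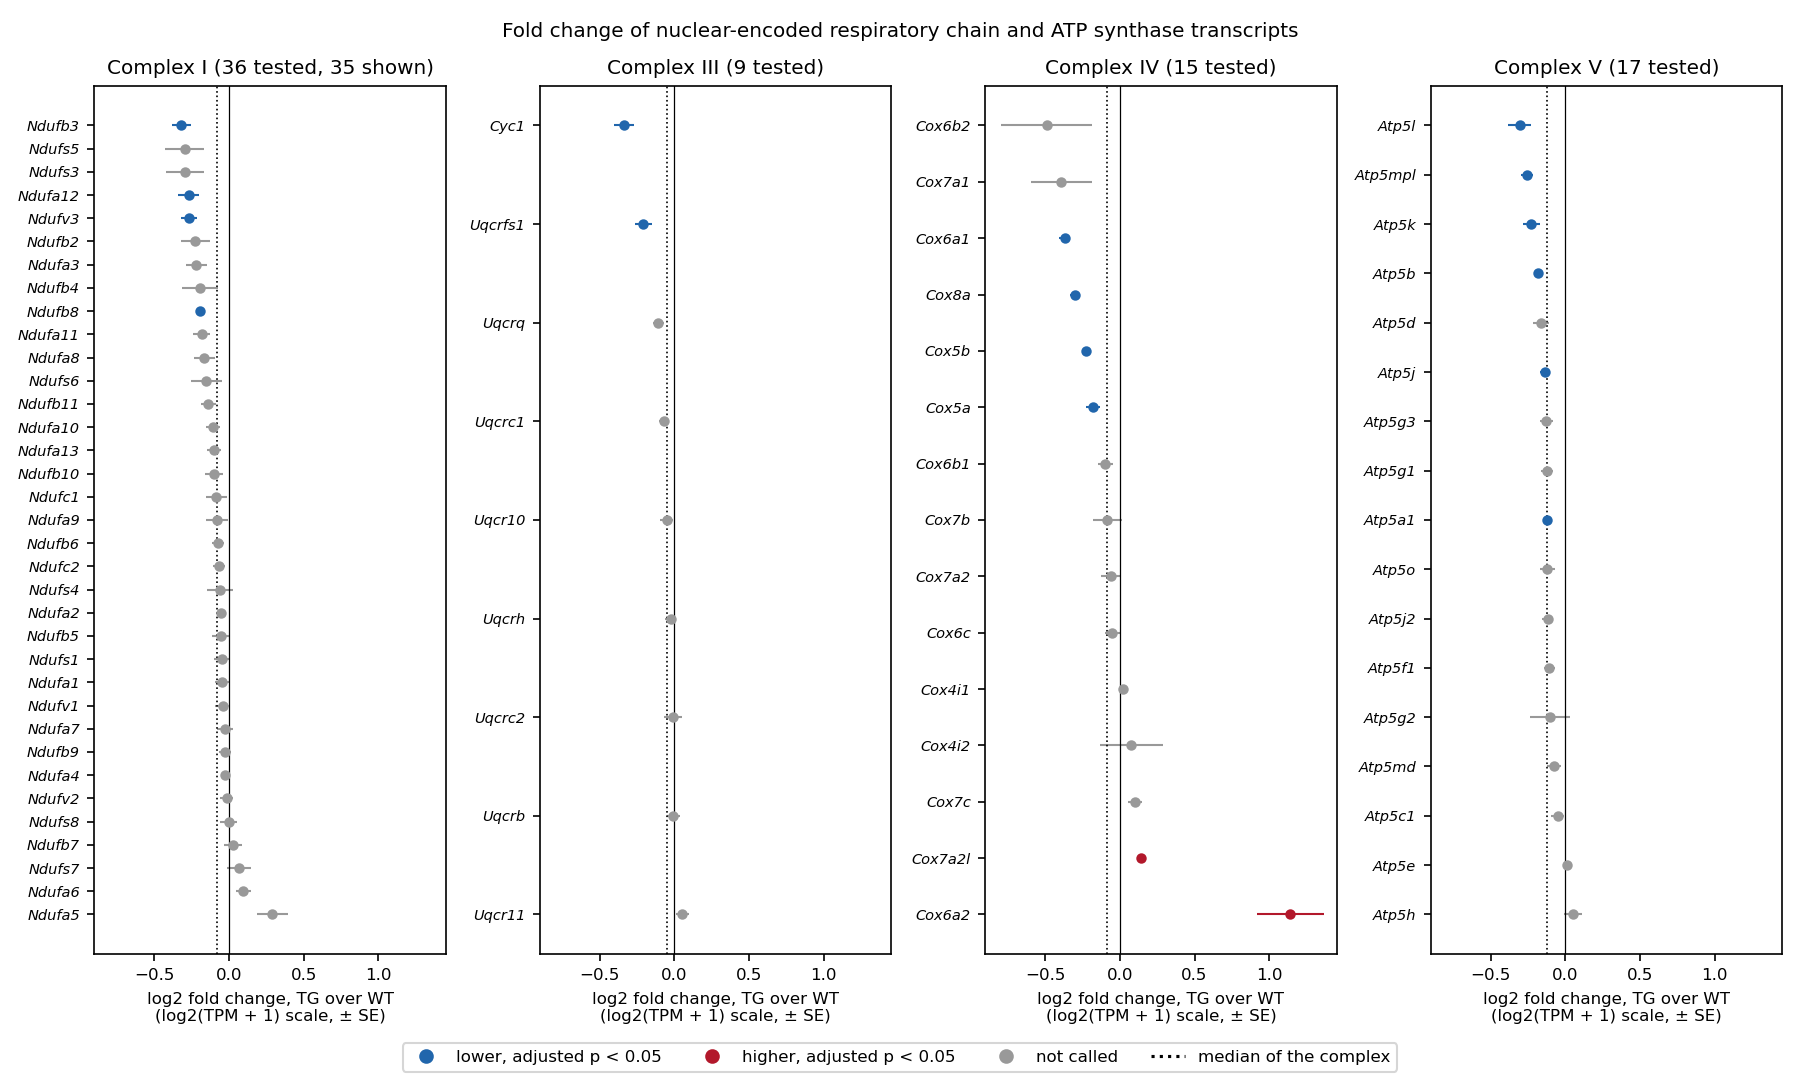
Log2 fold change (transgenic over wild type, log2(TPM + 1) scale, error bar SE) of 76 of the 77 tested subunit genes, in 1 panel per complex, with the median over all tested members of each complex as a dotted line. Of the points, 16 called lower lie between -0.12 and -0.37, and the 2 called higher are Cox7a2l and Cox6a2, both of complex IV.

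By complex, the share of tested members that fell was 13.9% for complex I (5 of 36), 22.2% for complex III (2 of 9), 26.7% for complex IV (4 of 15) and 35.3% for complex V (6 of 17). The share for complex I lay next to the 13.2% of all tested genes, which include genes of low level. In the separate fit of genes with at least 5 TPM in a group 17.5% were lower. Shares by complex in that fit are not given here. Median log2 fold changes were -0.08, -0.05, -0.08 and -0.12 in the same order. These medians moved with the scaling and with single libraries: upper-quartile scaling gave -0.045, -0.013, -0.046 and -0.086, the median of complex IV was -0.153 without transgenic replicate 3, and that of complex III was -0.031 without wild type replicate 1 and -0.077 without wild type replicate 3. Median-of-ratios scaling gave -0.033 for complex III. In the authors' deposited table the medians were -0.130, -0.080, -0.149 and -0.176. Single libraries weighed on these small numbers: without wild type replicate 1 the number that fell was 3 in complex I, without transgenic replicate 2 it was 3 in complex V, and in complex III it was 1 without wild type replicate 1 or 3 or transgenic replicate 2 or 3. The differences between complexes were not tested, since subunits are not replicates of a condition.

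The summed level was also lower in each complex, though the order of the complexes was not that of the shares or the medians. Complex I members added up to 2199, 2219 and 2232 TPM in wild type and 2083, 2083 and 2096 TPM in transgenic libraries, 5.84% lower. Complex III members added up to 748, 728 and 709 TPM and to 698, 687 and 702 TPM, 4.53% lower. For complex IV the sums were 2006, 2076 and 2056 TPM against 1812, 1851 and 1917 TPM, 9.10% lower. For complex V they were 2455, 2457 and 2477 TPM against 2238, 2282 and 2283 TPM, 7.93% lower. The groups did not overlap for any of the 4 complexes. For complex III they lay close, with 709 TPM as the lowest wild type and 702 TPM as the highest transgenic sum. The sums were taken on TPM as deposited and were not repeated with other scaling. All members together took 1.36% to 1.37% of the summed TPM of the table in wild type and 1.26% to 1.29% in transgenic libraries. A sum is set mostly by its most abundant subunits.

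**Figure D2:**
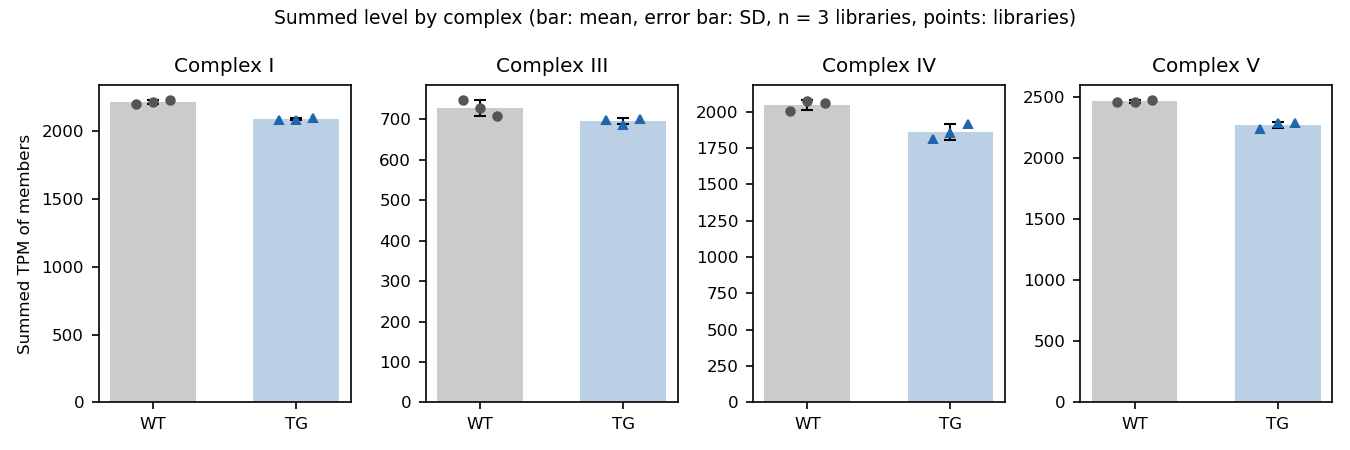
Summed TPM of all members of each complex (bar: mean of 3 libraries, error bar: SD, points: libraries; WT wild type, TG transgenic). Transgenic sums lie below wild type sums in all 4 panels, by 4.53% (complex III) to 9.10% (complex IV).

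Promoters of the members are shown as a description. Whether the 17 members that fell share a regulator was not tested. RefSeq promoter sequences (GRCm38.p6, 250 bases before to 50 after each start) were found for 64 of 83 members and 13 of the 17 that fell. The stretches printed belong to the 3 that fell with the lowest adjusted p and to the 2 members with a match to TTANGTAA, a loose form of the E4BP4 element. Each is a stretch before the start that holds no annotated exon, with matches on either strand in capitals (the CCAAT box in Cox6a1, Cox8a and Atp5b, the NRF1 core as the longer run in Cox6a1, and TTANGTAA in Cox7b and Atp5o).
Cox6a1, chr5:115348982-115349129, minus strand: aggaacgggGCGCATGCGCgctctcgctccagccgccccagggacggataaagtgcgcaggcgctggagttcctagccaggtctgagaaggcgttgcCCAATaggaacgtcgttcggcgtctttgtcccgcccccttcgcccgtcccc
Cox8a, chr19:7217617-7217816, minus strand: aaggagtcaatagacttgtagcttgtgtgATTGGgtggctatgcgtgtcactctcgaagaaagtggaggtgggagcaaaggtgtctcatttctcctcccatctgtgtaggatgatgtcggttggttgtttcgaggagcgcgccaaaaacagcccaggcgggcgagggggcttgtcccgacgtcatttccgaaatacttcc
Atp5b, chr10:128083073-128083272, plus strand: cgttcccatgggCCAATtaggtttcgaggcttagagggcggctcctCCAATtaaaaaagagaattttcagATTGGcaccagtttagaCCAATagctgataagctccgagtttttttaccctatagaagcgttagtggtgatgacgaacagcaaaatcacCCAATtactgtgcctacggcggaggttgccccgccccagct
Cox7b, chrX:106015500-106015699, plus strand: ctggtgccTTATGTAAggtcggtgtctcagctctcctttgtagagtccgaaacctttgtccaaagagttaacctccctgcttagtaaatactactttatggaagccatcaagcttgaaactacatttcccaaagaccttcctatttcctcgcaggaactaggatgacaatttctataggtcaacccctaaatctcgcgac
Atp5o, chr16:91931688-91931880, minus strand: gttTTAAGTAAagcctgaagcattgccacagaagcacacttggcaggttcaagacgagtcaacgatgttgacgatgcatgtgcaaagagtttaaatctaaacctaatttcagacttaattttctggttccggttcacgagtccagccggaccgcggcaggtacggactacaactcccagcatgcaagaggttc
The NRF1 core, searched as GCGCATGCG, was found in the promoters of 8 of 64 members (12.5%) and in 4.12% of the 9725 tested genes with a promoter sequence. Of the 8, Cox6a1, Atp5k and Atp5l fell, and Atp5g2, Ndufa8, Ndufa11, Uqcr11 and Uqcrc1 were not called. The ETS core CCGGAAG was found in 23.4% of members and 20.3% of tested genes, the YY1 core AAGATGG in 15.6% and 8.51%, and CCAAT in 43.8% and 42.2%. Over all 27025 genes with a promoter sequence these shares were 1.95%, 9.93%, 7.28% and 41.1%. All motifs were searched on both strands of the 300-base windows, some matches lie outside the printed stretches, and the capitals of overlapping matches run together. For the element bound by E4BP4 and its PAR relatives the loose form TTANGTAA was searched, which takes any base at N. Cox7b has T there and Atp5o has A, so the search does not show that both carry the element itself. The loose form was in 2 of 64 members (3.12%), in 1.80% of tested genes and in 2.72% of all genes. Those 2, Cox7b and Atp5o, were not called, at 71.9, 79.9 and 69.2 TPM against 61.5, 67.1 and 80.8 TPM and at 120, 138 and 126 TPM against 118, 113 and 121 TPM. The loose form was in none of the 13 promoters of members that fell. A match is a run of letters and not a shown binding site, and no match speaks only for these windows.

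In complex IV, cytochrome c oxidase, the abundant transcripts of its small nuclear subunits went different ways. Cox6a1, a regulatory subunit in its common form outside muscle, was at 310, 338 and 336 TPM in wild type and 250, 256 and 255 TPM in transgenic libraries. It fell by 22.8% (log2 fold change -0.37 ± 0.035 SE, limma adjusted p = 0.000257), the largest percentage fall among the 17. Its row is NM_007748, chromosome 5 at 115345623 to 115348958, minus strand (mm10, as are all positions here). Cox8a, the common form of the smallest subunit, was at 308, 327 and 315 TPM against 258, 248 and 263 TPM and fell by 18.9% (-0.30 ± 0.030 SE, limma adjusted p = 0.000358; chromosome 19 at 7215158 to 7217616, minus strand). For both genes every transgenic library was below every wild type library, with a gap wider than the spread within either group.

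Cox5a and Cox5b, which lie on the matrix side of the enzyme, fell as well. Cox5b was at 153, 154 and 149 TPM in wild type and 130, 126 and 133 TPM in transgenic libraries (14.6% lower, limma adjusted p = 0.00137). Cox5a was at 189, 165 and 178 TPM against 153, 159 and 157 TPM (11.7% lower, limma adjusted p = 0.0316). The Cox5a groups lay close together, and its call was kept in 1 of 6 fits that each left out 1 library (limma adjusted p 0.00679 to 0.0906).

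Cox4i1, the most abundant member of all and the common form of a regulatory subunit, was at 406, 420 and 409 TPM in wild type and 403, 436 and 415 TPM in transgenic libraries. The groups overlapped, and the 95% interval of its log2 fold change ran from -0.05 to 0.09 (limma adjusted p = 0.642), so it did not share a fall of the size seen for Cox6a1 or Cox8a. The other tested members with no call from limma included Cox6b1 (lower in the authors' deposited table, adjusted p = 0.0154), Cox6c, Cox7a2, Cox7b and Cox7c. Cox7c was at 61.9, 57.4 and 60.3 TPM against 62.3, 63.2 and 67.5 TPM, with all transgenic values above the wild type ones but no call (limma adjusted p = 0.141), and a log2 fold change of -0.0020 in the authors' deposited table.

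Cox7a2l rose. Its product is related to the Cox7a subunits and is known for joining complexes III and IV into supercomplexes. It was at 85.0, 84.1 and 82.1 TPM in wild type and 93.3, 92.5 and 91.9 TPM in transgenic libraries, 10.6% higher (log2 fold change 0.14 ± 0.027 SE, limma adjusted p = 0.00772; chromosome 17 at 83501917 to 83514333, minus strand). All 3 transgenic values lay above the wild type ones. In the authors' deposited table, which counted over the gene span with introns, Cox7a2l was not called (log2 fold change 0.11, adjusted p = 0.105), and the call was also lost in limma without its trend.

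**Figure D3:**
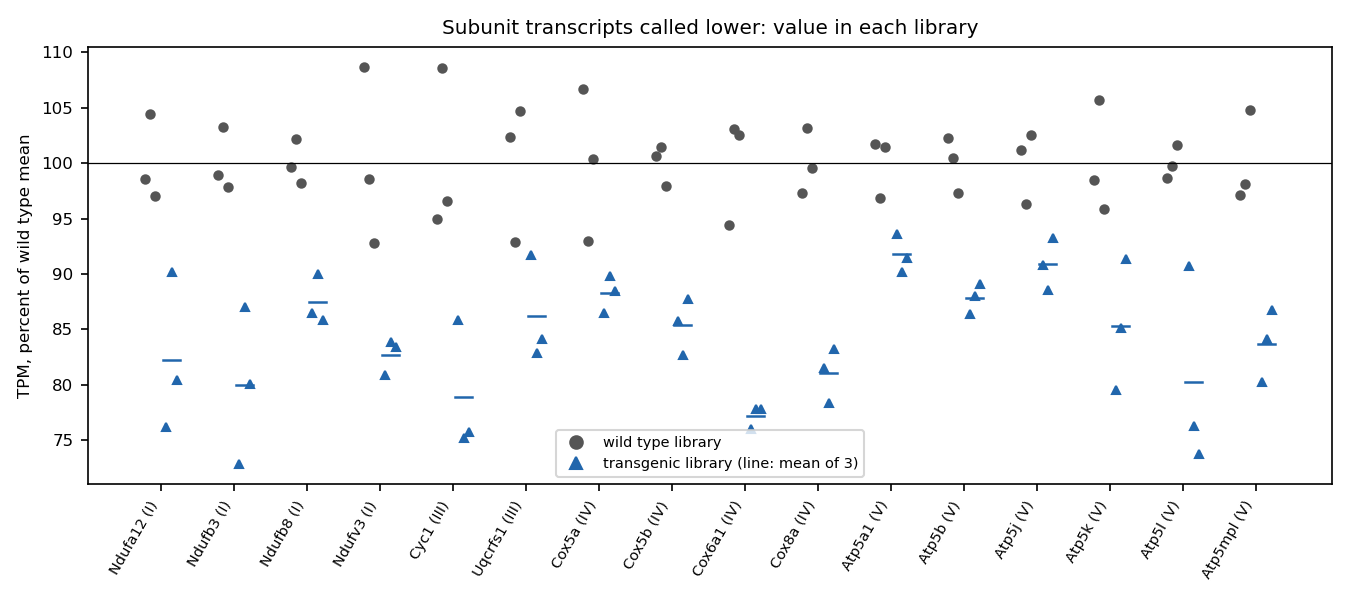
TPM of 16 of the 17 members called lower, in each library, as percent of the wild type mean (circles: wild type, triangles: transgenic, line: mean of the 3 transgenic libraries; complex in brackets; the axis does not start at 0). The 3 transgenic values lie below the 3 wild type values for each gene shown, and the spread within a group is widest for Atp5l.

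Several complex IV positions have an alternative form used in striated muscle, in testis or under low oxygen. These were scarce in both groups. Cox6a2, the heart and muscle form of Cox6a1, was at 0.746, 0.717 and 1.34 TPM in wild type and 2.56, 2.61 and 4.83 TPM in transgenic libraries, from 23 and 85 reads per group. It rose 3.57-fold (log2 fold change 1.14 ± 0.22 SE, limma adjusted p = 0.00909; chromosome 7 at 128205435 to 128206366, minus strand). It passed the filter on low values through the transgenic group only, and its call held with no such filter and without any 1 library. Cox6a2 made up 0.283% ± 0.0997 of the summed Cox6a transcripts in wild type and 1.29% ± 0.487 in transgenic libraries (SD, n = 3 each). Striated muscle genes stayed near 0, with Ckm at 0.338 and 0.395 TPM, Myh7 at 1 and 5 reads per group and Tnnt3 at 0.444 and 0.541 TPM, while Acta1 fell from 2.86 to 1.09 TPM (limma adjusted p = 0.0136). Cox6a2 is also known as a transcript of plasmacytoid dendritic cells. A list of 7 markers of those cells was added after Cox6a2's value was seen, and 5 were tested. Of these, 2 rose and 0 fell, where 8.71% of all tested genes rose. That count is a description and not a test, since the list was chosen with the rise of Cox6a2 known. Siglech went from 0.737 to 3.16 TPM and passed the filter, like Cox6a2, through the transgenic group only. Klk1 went from 14.3 to 30.9 TPM, and Irf8, Ly6d and Tcf4 were not called. The summed level of that list was below 205 TPM in the wild type libraries and 229 to 233 TPM in transgenic libraries, and its part in the Cox6a2 value was not tested. An exon of Itgad lies opposite to Cox6a2, and Itgad was at 0.129 and 0.280 TPM.

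Cox4i2, the form of Cox4i1 known to be induced by low oxygen, was at 1.36, 0.651 and 1.88 TPM in wild type and 1.48, 1.47 and 1.15 TPM in transgenic libraries (limma adjusted p = 0.830). Cox6b2, the testis form of Cox6b1, was at 3.23, 6.51 and 9.33 TPM against 3.17, 3.55 and 5.23 TPM (limma adjusted p = 0.303). Cox7a1, the muscle form of Cox7a2, was at 10.4, 7.38 and 11.1 TPM against 5.08, 7.23 and 9.20 TPM (limma adjusted p = 0.216). In these 3 genes the groups overlapped and the wild type libraries differed among themselves by more than the group means did. Cox7a1 made up 12.9% ± 2.31 of the summed Cox7a1 and Cox7a2 transcripts in wild type and 10.2% ± 2.06 in transgenic libraries (SD, n = 3 each). Cox7b2, Cox8b and Cox8c were below the filter, with 0 to 2 reads in each library. Ndufa4l2, the low-oxygen relative of Ndufa4, was below it too, with 6 reads in wild type and 20 in transgenic libraries, 14 of them in transgenic replicate 1. The remaining members below it were Ndufa11b, with 2 reads in each group, and Ndufb4c, with 0 reads in all 6 libraries.

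**Figure D4:**
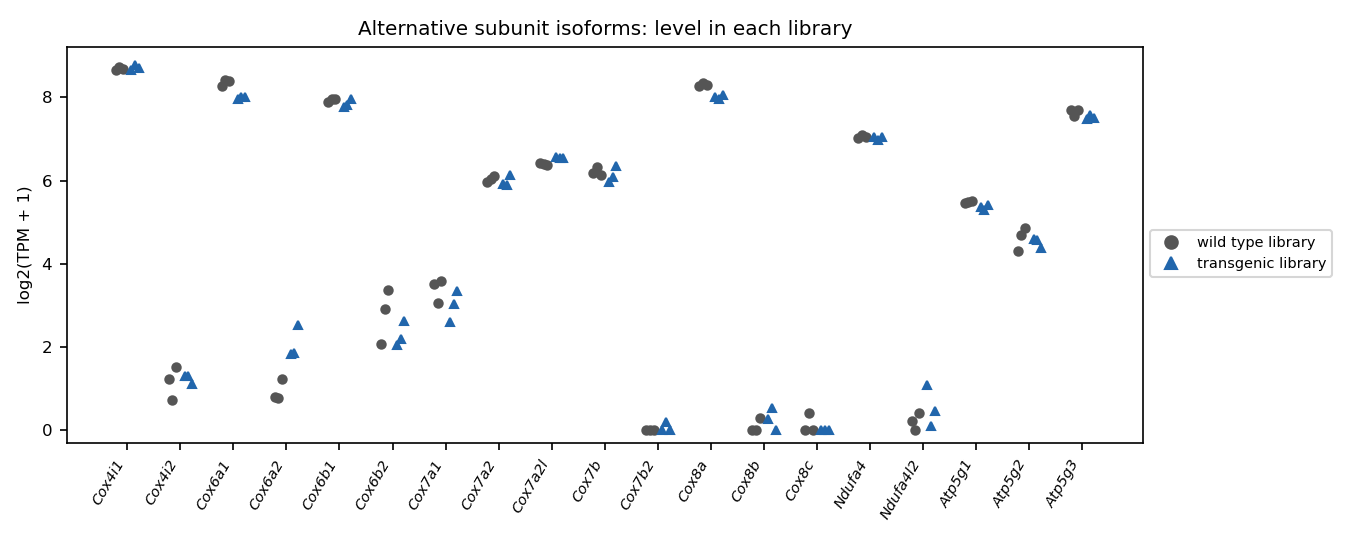
Level, as log2(TPM + 1), of subunit genes that have alternative forms, in each of the 3 wild type (circles) and 3 transgenic libraries (triangles). The common forms lie far above the muscle, testis and low-oxygen forms in both groups, and Cox6a2 is the only one of the scarce forms in which the groups do not overlap.

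In complex V, 6 of 17 members fell with limma and the other 11 were not called. Of those 11, the authors' deposited table called Atp5d, Atp5f1, Atp5g1, Atp5g3, Atp5j2 and Atp5o lower (adjusted p from 4.49e-06 to 0.0175). The catalytic head of ATP synthase, F1, is built around the alpha and beta subunits. Atp5b, the catalytic beta subunit and the most abundant member of the complex, was at 371, 364 and 353 TPM in wild type and 313, 319 and 323 TPM in transgenic libraries, 12.1% lower (log2 fold change -0.19 ± 0.024 SE, limma adjusted p = 0.00123; chromosome 10 at 128083307 to 128090388, plus strand). Atp5a1, the alpha subunit, was at 250.1, 238 and 249 TPM against 230.2, 222 and 225 TPM, 8.22% lower (limma adjusted p = 0.0138). Its call was lost without transgenic replicate 2 (limma adjusted p = 0.0522), with upper-quartile scaling and without limma's trend. The other F1 subunits were not called with limma: Atp5e, the epsilon subunit, was at 242, 237 and 230.3 TPM against 235, 240.1 and 239 TPM (limma adjusted p = 0.807; 95% interval -0.05 to 0.07). Atp5c1, the gamma subunit of the rotating shaft, was at 125 ± 4.61 and 121 ± 5.66 TPM (± SD over n = 3, adjusted p = 0.428 with limma), and Atp5d, the delta subunit, at 182 ± 10.5 and 162 ± 10.1 TPM (limma adjusted p = 0.0655).

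Small subunits of the membrane part of ATP synthase made up 3 of the 6 falls. Atp5mpl, a small proteolipid of the membrane part, was at 123, 124 and 133 TPM in wild type and 102, 107 and 110 TPM in transgenic libraries (16.3% lower, limma adjusted p = 0.00345). Atp5k, the e subunit, was at 118, 127 and 115 TPM against 95.6, 102 and 110 TPM (14.7% lower, limma adjusted p = 0.0227). Atp5l, the g subunit, was at 18.41, 18.62 and 18.98 TPM against 16.94, 14.25 and 13.78 TPM (19.7% lower, limma adjusted p = 0.0268). The e and g subunits are known for their part in joining ATP synthase into dimers. Their calls were kept in 2 and 1 of 6 fits that left out 1 library, while that of Atp5mpl was kept in all 6. The call of Atp5l was also lost with no filter on low values, without the trend, with limma-voom and in the authors' deposited table (adjusted p = 0.0729). Atp5l was also at the lowest level of the complex. In the peripheral stalk, which holds the head still, Atp5j (subunit F6) fell by 9.12%, from 135, 129 and 137 TPM to 122, 119 and 125 TPM (limma adjusted p = 0.0221), a call kept in 2 of 6 such fits. Atp5h, the d subunit of the stalk, was at 141, 135 and 148 TPM against 133, 158 and 149 TPM, with overlapping groups.

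The c-ring, which turns as protons pass, is encoded by 3 genes whose mature proteins are known to be identical. Limma called none of them: Atp5g1 was at a mean of 43.8 and 40.1 TPM, Atp5g2 at 24.0 ± 4.66 and 22.0 ± 1.87 TPM and Atp5g3 at 200.4 ± 11.0 and 183 ± 6.28 TPM (± SD over n = 3, adjusted p = 0.0682, 0.632 and 0.0761 with limma). Their shares of the summed c-ring transcripts lay close together in both groups: Atp5g3 made up 74.7% ± 1.84 in wild type and 74.7% ± 0.985 in transgenic libraries, and Atp5g1 16.3% ± 0.640 and 16.4% ± 1.02 (SD, n = 3 each).

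In complex III 2 members fell with limma, and both carry electron-transfer groups of the complex. Cyc1, cytochrome c1, was at 60.8, 69.5 and 61.9 TPM in wild type and 55.0, 48.2 and 48.5 TPM in transgenic libraries, 21.0% lower (log2 fold change -0.34 ± 0.068 SE, limma adjusted p = 0.0104; chromosome 15 at 76343523 to 76346259, plus strand). Uqcrfs1, the Rieske iron-sulfur protein, was at 56.1, 50.9 and 57.4 TPM against 50.3, 45.4 and 46.1 TPM, 13.8% lower (limma adjusted p = 0.0359), with wild type replicate 2 close to transgenic replicate 1. Its call was kept in 2 of 6 fits that left out 1 library, and that of Cyc1 in all 6. Limma called neither of the structural core proteins, and the authors' deposited table called Uqcrc1 lower (adjusted p = 0.0218). Uqcrc1 was at 88.6, 89.1 and 87.7 TPM against 84.5, 86.4 and 81.7 TPM (limma adjusted p = 0.138), and Uqcrc2 at 54.5 ± 4.04 and 54.1 ± 2.39 TPM (± SD over n = 3, adjusted p = 0.931 with limma). Of the 5 small subunits Uqcrb, Uqcrq, Uqcr10, Uqcr11 and Uqcrh limma called none, and the authors' deposited table called Uqcrq lower (adjusted p = 0.0138). In the limma fit their log2 fold changes ran from -0.11 to 0.05. Uqcrh, the hinge protein that helps cytochrome c dock, had the highest level of the complex, at 149 ± 6.90 and 146 ± 3.84 TPM (SD, n = 3 each).

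In complex I, 5 of 36 tested members fell. Ndufb3, of the membrane arm, was at 47.0, 49.1 and 46.5 TPM in wild type and 34.7, 41.4 and 38.1 TPM in transgenic libraries, 20.0% lower (log2 fold change -0.32 ± 0.063 SE, limma adjusted p = 0.00949; chromosome 1 at 58586397 to 58595964, plus strand). Ndufb8, also of the membrane arm, was at 97.8, 100.3 and 96.5 TPM against 85.0, 88.3 and 84.3 TPM, 12.6% lower (limma adjusted p = 0.00359). Ndufv3, an accessory subunit of the NADH-oxidising module, was at 93.0, 84.3 and 79.4 TPM against 69.2, 71.7 and 71.4 TPM, 17.3% lower (limma adjusted p = 0.0111). For these 3 genes the call was kept whichever library was left out. Ndufa12, an accessory subunit of the matrix arm, was at 19.6, 20.8 and 19.3 TPM against 15.2, 18.0 and 16.0 TPM (17.7% lower, limma adjusted p = 0.0278), a call kept in 1 of 6 such fits and not made in the authors' deposited table (adjusted p = 0.0753).

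Core subunits of complex I that are encoded in the nucleus hold the flavin, the iron-sulfur clusters or the quinone site, and those described next were not called with limma. Ndufs1, the largest subunit of the complex, was at 21.7 ± 0.661 and 21.0 ± 0.761 TPM (± SD over n = 3, adjusted p = 0.532 with limma). Ndufv1, which binds NADH, was at 46.7 ± 3.17 and 45.3 ± 0.721 TPM (0.596), Ndufv2 at 36.4 ± 0.893 and 36.1 ± 1.52 TPM (0.841), Ndufs7 at 78.7 ± 9.89 and 82.1 ± 1.63 TPM (0.599) and Ndufs8 at 73.4 ± 5.97 and 73.1 ± 1.97 TPM (0.987), all SD with n = 3 each and limma adjusted p in brackets. Ndufs3 was at 35.04, 35.17 and 47.47 TPM against 35.56, 31.15 and 28.26 TPM (0.142), with wild type replicate 3 well above the rest. Ndufs3 was called lower with limma-voom on recovered reads (adjusted p = 0.0129) and in the authors' deposited table (adjusted p = 0.00377).

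Levels within a complex were far from even. Over tested members the mean level of both groups ran from 4.55 TPM (Ndufb4) to 130.2 TPM (Ndufa4) in complex I, from 48.3 TPM (Uqcrq) to 148 TPM (Uqcrh) in complex III, from 1.33 TPM (Cox4i2) to 415 TPM (Cox4i1) in complex IV and from 16.8 TPM (Atp5l) to 341 TPM (Atp5b) in complex V. Median levels were 54.0, 72.9, 88.2 and 123 TPM in the same order, which is also the order of the shares that fell. The median spread between wild type libraries (SD as percent of the mean) was 6.39%, 4.62%, 4.89% and 3.69%. Between transgenic libraries it was 4.31%, 3.85%, 5.05% and 4.23%. The part of level and spread in the shares that fell was not tested. Ndufa4, which is now placed with complex IV despite its name, was at 131 ± 3.03 and 129 ± 3.54 TPM (± SD over n = 3, adjusted p = 0.631 with limma). Counting it there and leaving out Cox7a2l, which is described as a joining factor, left the number that fell at 5 in complex I and 4 in complex IV. Fold change did not follow level: Spearman's rho across the 77 genes was 0.06 between mean TPM and log2 fold change, as a description over genes that share libraries. Among members with no call, the largest log2 fold change above 0 was that of Ndufa5 (0.29), a subunit of the matrix arm, at 24.7, 30.9 and 31.6 TPM against 40.0, 32.4 and 34.7 TPM, where no transgenic value lay below a wild type one but no call was made (limma adjusted p = 0.0916).

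In the other lists of the pathway the share called went from none to 2 of 4, where 13.2% of all tested genes were lower and 8.71% higher. Of the 4 subunits of complex II, which feeds electrons from succinate, 2 fell: Sdha from 87.8 ± 1.76 to 80.1 ± 2.38 TPM and Sdhc from 87.0 ± 4.95 to 75.8 ± 2.98 TPM (± SD over n = 3, adjusted p = 0.0246 and 0.0250 with limma). Among 18 tested genes of quinone synthesis, mobile carriers and remaining subunits 3 fell and 1 rose, with a median of -0.06. Coq10b, a quinone-binding protein, fell from 60.2 to 49.5 TPM, Coq9, of quinone synthesis, rose from 15.3 to 18.5 TPM, and Coq8b fell by 0.25 on the log2 scale, with Atp5mpl as the third fall. Of the assembly factors, limma called 0 of 16 for complex I, 0 of 4 for complex II and 0 of 4 for complex V, where 3, 2 and 1 had an unadjusted p below 0.05. On recovered reads limma-voom called 0, 1 and 0 of them, and numbers called in the authors' deposited table were 1, 0 and 0. For complex III 1 of 5 rose (Uqcc3, from 17.1 to 23.4 TPM) and for complex IV 1 of 23 rose (Cmc1, from 9.81 to 12.4 TPM). The medians of the 5 assembly lists ran from -0.04 to 0.00.

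Of 17 tested regulators of respiratory and mitochondrial genes 1 fell: Yy1 from 28.4 ± 1.46 to 24.7 ± 0.233 TPM (± SD over n = 3, adjusted p = 0.0235 with limma). Nrf1, a transcription factor of many respiratory genes, was at 9.57 and 8.38 TPM (limma adjusted p = 0.102). Among 9 tested genes that link respiration to oxygen 4 fell, where 13.2% of all tested genes did, with a median of -0.19. Bnip3, of mitochondrial removal, fell from 14.03 to 7.42 TPM, Epas1 from 6.70 to 3.46 TPM, Pdk1, which blocks pyruvate entry, from 9.91 to 6.43 TPM and Hif1a from 67.8 to 59.3 TPM. In log2 terms the differences were larger than those of the 17 subunits that fell for Bnip3 (-0.84), Epas1 (-0.79) and Pdk1 (-0.55). Subunits encoded in mitochondrial DNA are not analysed here.

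**Figure D5:**
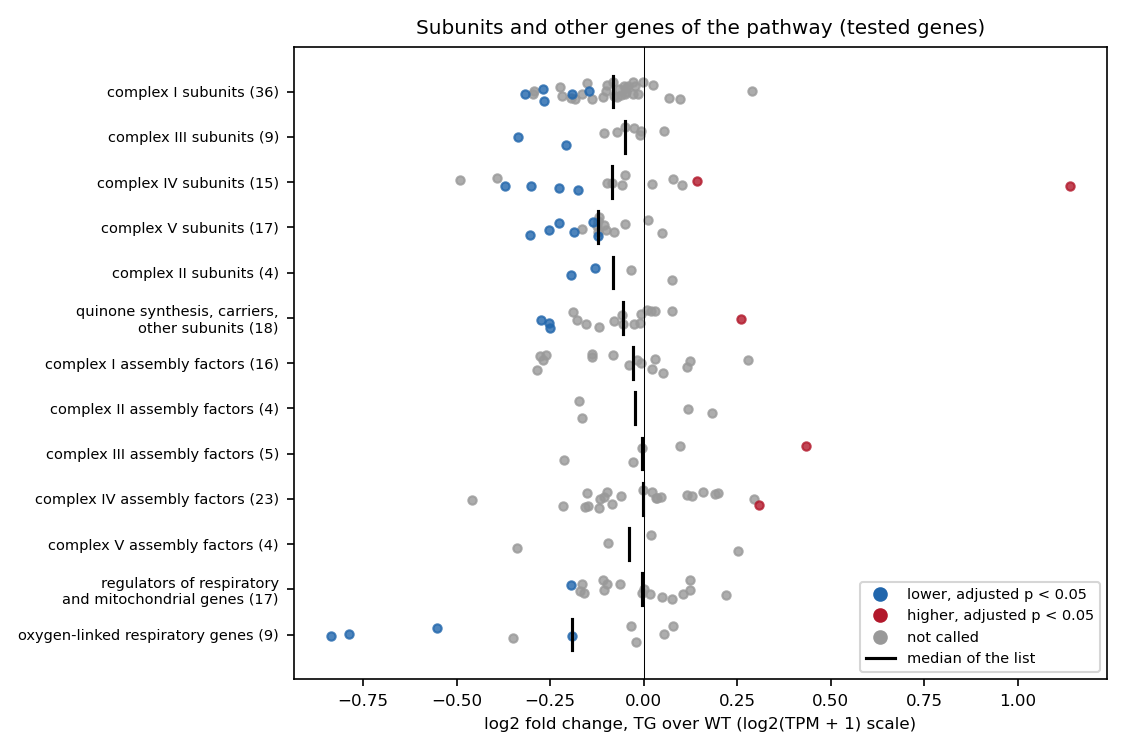
Log2 fold change (transgenic over wild type, log2(TPM + 1) scale) of tested genes in the 4 complexes and in 9 other lists, 1 point per gene, with the median of each list as a bar and the number tested in brackets. Medians of the assembly lists lie between -0.04 and 0.00 and those of complexes I, III, IV and V between -0.12 and -0.05; Atp5mpl, Atp5md and Cox4i2 appear in 2 lists each.

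In the authors' deposited table, 29 of the same 77 members were lower and 1 higher at their adjusted p below 0.05, where 21.3% and 11.2% of the 12432 tested genes found there were. By complex the numbers lower were 9, 4, 5 and 11 for complexes I, III, IV and V. The 1 called higher was Cox6a2. Across the fit used here, 14 other fits and that table, 9 members kept their call each time: Ndufb3, Ndufb8, Ndufv3, Cyc1, Cox5b, Cox6a1, Cox8a, Atp5b and Atp5mpl. The library kit is not described as keeping strand, and 26 members have an exon opposite to an exon of another gene (GENCODE M21), among them Cox5a, Cox6a2, Atp5a1, Atp5j and Atp5l. An exon of Ndufb8 overlaps Gm20538 on the same strand. Reads of such pairs cannot be told apart.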

How the data were processed

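TPM values for 25124 gene rows, 1 RefSeq transcript per gene with its exon length, were deposited by the authors for 6 libraries, per the file headers. The other deposited table of the authors has 24421 rows, counted over the gene span, with log2 values for each library and a comparison (log2 fold change and p-value, raw and adjusted). Per the submitters' processing notes the tools were bcl2fastq, STAR, HOMER 4.11.1 and DESeq2 and the build mm10, with settings not given in the sources used here. How reads with several matches were treated is not given either, and processed pseudogenes are known for many subunit genes.

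Groups came from the sample titles, since in the genotype field the gene name ends in another digit for transgenic replicates 2 and 3. The members and lists were chosen with earlier results of these data known. limma 3.58.1 (R 4.3.3, trend) was run on log2(TPM + 1) with genotype as the single term, over the 12633 genes that reached a mean of 1 TPM in either group, with Benjamini-Hochberg adjustment over all of them and a threshold of 0.05. Fold changes on this scale understate the change of low genes. The test was also run on simulated reads with fewer changed genes than were called here, so that run does not vouch for the calls. Read numbers came from TPM times exon length, which was whole in units of 1 read for 100% of values up to 1000 reads (tolerance 0.1 reads). A count of 0 allows up to 3 reads, for counting error only. Within groups chi-square over its degrees of freedom was 2.06 to 2.75 for pairs of libraries, above sampling noise, so none was treated as a duplicate.

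Genes were named by a rule: members called in either direction, alternative forms, core subunits, the highest and lowest member of each complex, up to 2 genes per pathway list by p, and Nfil3. Ndufa5, Atp5e, Atp5h, Atp5d, Cox7c, the plasmacytoid markers and the motifs were chosen after values were seen. The values of 1 member are counted in totals and not reported here. Alternatives were a pseudocount of 0.1, no filter, a filter of 5 TPM, upper-quartile and median-of-ratios scaling, a replicate block, limma without the trend, limma-voom on recovered reads, the authors' comparison and each library left out in turn.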

Additional observations from a re-analysis of the deposited data

How the results depend on the processing

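The 9 falls kept in all 15 alternatives were Ndufb3, Ndufb8, Ndufv3, Cyc1, Cox5b, Cox6a1, Cox8a, Atp5b and Atp5mpl. Members lower and higher numbered 17 and 2, and members lower by complex (I, III, IV, V) 5, 2, 4 and 6. With no filter on low values 11 were lower, 3 of them in complex I and 1 in complex III. With a filter of 5 TPM 21 were lower and 1 higher, since Cox6a2 was not tested. Ndufb4 and Cox4i2 were not tested in that fit either, and 17.5% of its 9049 genes were lower. Without the trend 9 were lower and 1 higher, with 3, 1 and 2 lower in complexes I, III and V. In the authors' deposited table the call was lower for 29 and higher for 1, with 9, 4 and 11 lower in complexes I, III and V and medians of -0.13 in complex I and -0.18 in complex V. Upper-quartile scaling gave 12 lower, 1 of them in complex III, and medians of -0.045, -0.013, -0.046 and -0.086 in complexes I, III, IV and V. Over all tested genes 1315 were lower with that scaling and 1666 in the fit used. For several other alternatives the number over all genes is not given here, so their counts of members stand without it. Median-of-ratios scaling gave medians of -0.064 and -0.105 in complexes I and V. The cause of these moves was not tested. Replicate numbers did not pair the samples (correlations of deviations -0.01, -0.04 and 0.03 for same numbers, and not every library correlated best with its own number). With the number as a replicate block 19 were lower and 2 higher, 8 of the lower in complex I. Leaving out each library in turn gave 12 to 17 lower, 2 to 2 higher, 3 to 6 lower in complex I, 1 to 2 in complex III, 3 to 4 in complex IV and 3 to 5 in complex V, and medians of -0.099 to -0.076, -0.08 to -0.03, -0.15 to -0.06 and -0.13 to -0.12 in the same order.

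Among the members named by the rule, the sign turned for those listed here, none of them called in the fit used or in that alternative. Members outside the rule also turned in the authors' deposited table, among them Cox7c (-0.0020), Atp5h (-0.037), Atp5md (0.0044), Atp5e (-0.025) and Ndufb7 (-0.025). With upper-quartile scaling Ndufa4 was at 0.014, Ndufs8 at 0.036, Ndufv2 at 0.022, Uqcrc2 at 0.028 and Uqcrh at 0.012. With median-of-ratios scaling Ndufs8 was at 0.017, Ndufv2 at 0.0028 and Uqcrc2 at 0.0089, and with limma-voom Ndufs8 was at 0.0060. In the authors' deposited table Cox4i1 was at -0.073 and Cox4i2 at -0.40. With 1 library left out in turn, Ndufs7 ranged from -0.035 to 0.14, Ndufs8 from -0.069 to 0.042, Ndufv1 from -0.087 to 0.0073, Ndufv2 from -0.047 to 0.011, Uqcrc2 from -0.041 to 0.050, Uqcrh from -0.060 to 0.0059, Cox4i1 from -0.0079 to 0.048, Cox4i2 from -0.14 to 0.26, Cox7b from -0.19 to 0.0011 and Atp5g2 from -0.25 to 0.019. Depth limits the scarce forms: Cox4i2, Cox6a2 and Cox6b2 rest on 6 to 59 reads a library.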
